A study of Mus musculus with 46 samples.

Results

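The comparison set 2 degraded brain arrays against 14 intact brain arrays, out of 16 brain arrays and 46 arrays deposited for the whole series. The degraded arrays carried RNA from brain stored at room temperature (RT) for 48 h and 96 h, with RNA integrity numbers (RIN, a scale on which lower values mean more fragmented ribosomal RNA) of 5.5 and 3.3. The intact arrays carried RNA from brain stored at RT for 0 h to 24 h or at 4 °C for 0 h to 96 h, with RIN values from 7.3 to 8.7. The rule for the members used storage time and RIN. All arrays came from male C57BL6 mice of an Il1a knock-out strain, without a wild-type group and without any treatment other than storage of the tissue after death. Per the study's methods, an organ was cut into 8 parts of similar size, each part was stored for a different time, and the organs of 1 animal per temperature went onto arrays. The 8 RT arrays were therefore 8 parts of 1 brain, and the 8 arrays at 4 °C were 8 parts of another brain. Storage time and brain region cannot be told apart, temperature, animal and slide cannot be told apart, and every p-value below measures the spread between parts of brain. The 12 h arrays carry that time in the labels, while the methods give 14 h. Levels are log2 values after the variance-stabilizing normalization (VSN) that the authors deposited, and a difference of 1 on this scale is 2-fold.

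MicroRNAs (miRNAs) are short RNAs that guide Argonaute proteins to messenger RNAs and repress them. The enzymes Drosha and Dicer cut each miRNA out of a hairpin, which can give a product from its 5p arm and another from its 3p arm, and the seed near the 5′ end selects the targets. Numbers in miRNA names follow the order of registration, so that low numbers belong to the miRNAs found first. Brain is known for miR-124, miR-9 and miR-128 in neurons and miR-219a in oligodendrocytes. A hybridisation array reads any labelled RNA that pairs with its probes, and its signal is not proof of a processed miRNA.

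The sequences on which the results turn are mature mouse miRNAs as listed by RefSeq, written 5′ to 3′ with the seed (bases 2 to 8) in capitals. Of the 815 miRNAs tested, 680 matched a RefSeq entry by name. The first, from a miRNA that was higher on both degraded arrays and within RT storage, lies at chr7:45126925-45126945 on the minus strand of GRCm38.p6, inside the span of the snoRNA gene Snord33 and of its host Rpl13a.
miR-5121: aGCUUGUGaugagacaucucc
The next 4 are the 3 brightest miRNAs of the intact arrays and miR-3968, which was lower and shares letters with a pair of them. They lie at chr16:18165093-18165114 (minus strand, in no annotated gene), chr11:115447969-115447989 (minus strand, within Trim80), chr3:151023839-151023857 (minus strand, in no annotated gene) and chr11:60728698-60728718 (plus strand, within Mief2).
miR-6366: aGCUAAGGggcccggggagcca
miR-3968: cGAAUCCCacuccagacacca
miR-3963: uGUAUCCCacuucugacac
miR-5100: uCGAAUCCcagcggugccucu
Then follow both arms of a pair of hairpins whose arms were called in opposite directions, at chr1:92850381-92850403 and chr1:92850421-92850442 (plus strand, within Gpc1) and at chr7:64205831-64205852 and chr7:64205868-64205888 (plus strand, within Trpm1).
miR-149-5p: uCUGGCUCcgugucuucacuccc
miR-149-3p: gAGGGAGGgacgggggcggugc
miR-211-5p: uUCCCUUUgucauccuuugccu
miR-211-3p: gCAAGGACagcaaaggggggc
The last pair represents well-known guides that were lower on the degraded arrays, at chr17:17830817-17830840 (plus strand, within Spaca6) and chr13:48538239-48538260 (minus strand, in no annotated gene).
miR-125a-5p: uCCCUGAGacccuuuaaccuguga
let-7a-5p: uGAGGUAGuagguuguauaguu

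More miRNAs were detected on the degraded brain arrays than on any intact one. By the scanner software's detection flag, 688 miRNAs were detected after 48 h and 798 after 96 h at RT. The 14 intact arrays detected between 491 and 593 miRNAs, with a median of 544 and a mean of 545 ± 28.2 (SD, n = 14). The difference of the means was 198 miRNAs (2-sided exact permutation test, p = 0.0167, the smallest that 2 against 14 arrays allow). Within RT storage it was 203 miRNAs against 6 intact arrays (exact permutation p = 0.0714, again the smallest possible).

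Most of the additional detections were of miRNAs with high numbers in their names. Among all miRNAs of the array numbered 3000 and higher, 277 and 335 were detected on the 48 h and 96 h arrays against 141 to 208 on the intact arrays (exact permutation p = 0.0167). Numbers from 1000 to under 3000 gave 37 and 46 against 24 to 33 (exact permutation p = 0.0167). Names under 1000, which hold most of the conserved miRNAs, gave 374 and 417 against 318 to 381, so that the 48 h array fell inside the intact range (exact permutation p = 0.05). The sizes depended on which miRNAs were counted, since the tested set could be entered through degraded arrays. Over the 635 miRNAs that qualified on arrays outside the degraded groups of all 3 tissues, names of 3000 and higher gave 182 and 191 against 139 to 177, a difference of 25.6 where all miRNAs of the array gave 139 (exact permutation p = 0.0167). Over the same 635, names under 1000 differed by 3.93 (exact permutation p = 0.833) and numbers from 1000 to under 3000 by 1.07 (exact permutation p = 0.483). The summed signal of detected miRNAs was 324047 and 402169 on the degraded arrays, inside the intact range of 249616 to 504440 (exact permutation p = 0.683). Over the tested miRNAs the 48 h and 96 h profiles correlated with the intact mean at r = 0.917 and 0.815, while each intact array correlated with the mean of the others at 0.959 to 0.992. These correlations run across miRNAs, which are not independent replicates. No spot was saturated on any of the 16 arrays.

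**Figure D1:**
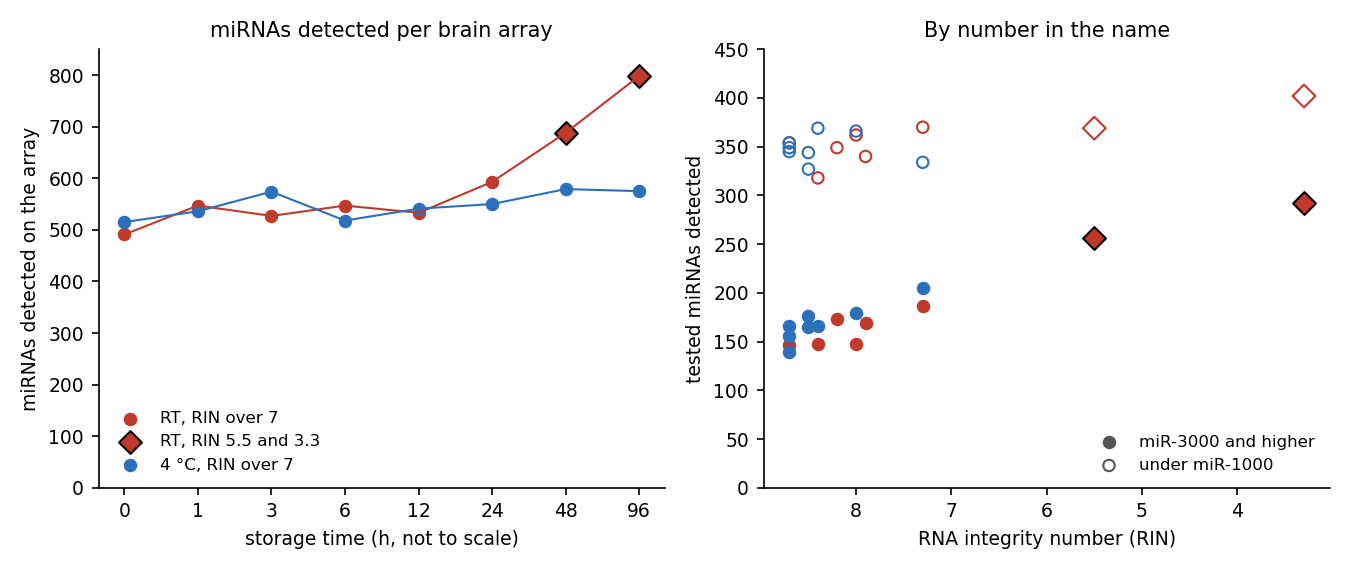
Left, the number of miRNAs detected on each of the 16 brain arrays against storage time (h, not to scale), in red for RT and blue for 4 °C, with diamonds for the 2 degraded arrays at 688 and 798. Right, the tested miRNAs detected on each array against its RIN, filled for names numbered 3000 and higher (256 and 292 on the degraded arrays, 139 to 205 on the intact ones) and open for names under 1000; over the 635 miRNAs that qualified without degraded arrays the filled class gave 182 and 191 against 139 to 177.

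Of 815 miRNAs tested, 346 differed between degraded and intact brain by more than 2-fold at a limma adjusted p under 0.05, which is 42.5% of all tested. Of these, 255 were higher (31.3% of all tested) and 91 were lower (11.2%). The share higher was 73.7% of the calls, but the scaling set this split. Scaling each array to its 75th percentile gave 67.2%, no scaling gave 98.5% (326 higher and 5 lower), and quantile normalization gave 49.8% (209 and 211). With normexp background correction, which was always run together with 75th percentile scaling, 95 miRNAs were called and 58.9% of them were higher. With these 2 changes together 132 of the 255 increases changed sign, and under 75th percentile scaling alone none did and 4 had a difference of exactly 0. None of the 91 decreases changed sign under these 4 alternatives. Relative to VSN the median difference of all tested miRNAs, −0.17 here, shifted by 0.79 without scaling, by −0.16 after quantile normalization and by −0.46 with normexp. The scale factor that VSN gave the degraded arrays was lower than the intact mean by 0.54 and 1.17 on the log2 scale.

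Fewer miRNAs were called without the 96 h array than without the 48 h array. In both cases the degraded side was 1 array, which was assumed to vary like the intact arrays. Without the 96 h array, 22 miRNAs were called, 21 higher and 1 lower, although 243 had an unadjusted p under 0.05. Without the 48 h array there were 400, of which 225 were higher. The 22 included miR-5121, miR-8090, miR-466i-5p, miR-574-5p and miR-328-5p among the increases, and miR-6366 was the decrease. Within RT storage, where animal and slide were constant, 301 miRNAs were called (36.9% of all tested), 27.9% higher and 9.08% lower. Of the main comparison's calls, 219 of the 255 increases and 60 of the 91 decreases kept their call. The rank test named in the study's methods, run as an exact Wilcoxon-Mann-Whitney test with the same 2-fold limit, called 295 (36.2% of all tested, 27.4% higher and 8.83% lower), among them 222 of the increases and 71 of the decreases.

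Both degraded arrays lay on the same side of the intact mean for every called miRNA, and the 96 h array usually lay farther out. Among the 255 increases the median difference was 1.56 after 48 h and 2.29 after 96 h, with the 96 h array farther in 212. Among the 91 decreases it was −0.85 and −1.66, with the 96 h array farther in 88. These miRNAs were called on the mean of the same 2 arrays, and over all 815 tested the medians were −0.11 and −0.19, with the 96 h array above the 48 h array in 356. The degraded arrays lay above every intact array for 222 of the increases, against 28.7% of all tested miRNAs. They lay below every intact array for 71 of the decreases, against 17.8% of all tested. These are the same miRNAs that the rank test called, since with 2 against 14 arrays only miRNAs without overlap passed it. Of the increases, 93 were detected on all 14 intact arrays, 88 on some and 74 on none. Of the decreases, 70 were detected on all 14 intact arrays and 14 on neither degraded array.

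**Figure D2:**
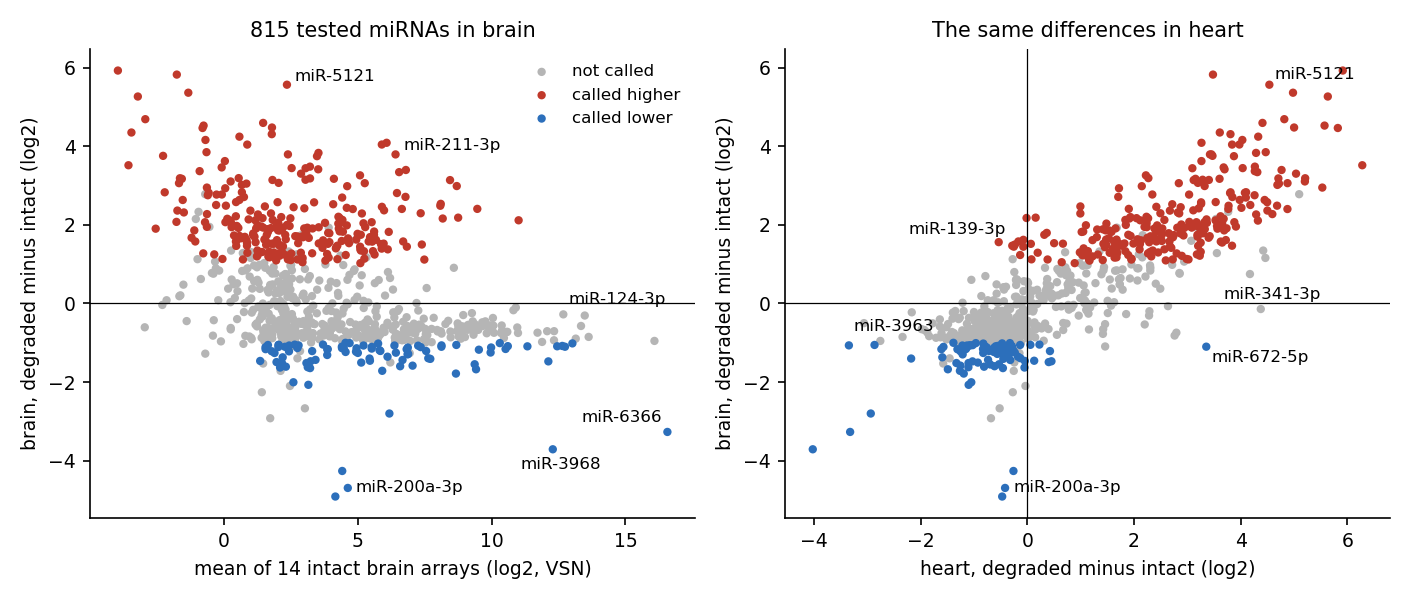
Each point is 1 of 815 tested miRNAs, red where called higher (255), blue where called lower (91) and grey where not called. Left, the degraded minus intact difference in brain (log2) against the mean of the 14 intact arrays, with the bright miR-6366 and miR-3968 among the decreases; under normexp correction 132 of the red points changed sign. Right, the brain difference against the same difference in heart, where miR-672-5p was lower in brain and higher in heart.

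The largest increases detected on both degraded arrays came from miRNAs that were dim or undetected in intact brain. miR-5121, whose locus overlaps a snoRNA gene (a class of small RNAs that guide modification of ribosomal RNA), ranged from 1.90 to 4.01 on the intact arrays with a median of 2.14. It reached 7.04 after 48 h and 8.81 after 96 h, a difference of 5.57 ± 0.48 (SE, limma adjusted p = 6.82e-07). In storage order the RT brain read 2.01, 2.01, 2.29, 2.57, 3.43, 4.01, 7.04 and 8.81, while the brain at 4 °C stayed between 1.90 and 2.22. Its highest intact values were thus those of the 12 h and 24 h RT parts. Of the 3 tested miRNAs inside a snoRNA gene it alone was called, and the others, the arms of miR-664, had differences of 0.98 and −0.62.

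miR-8090, within the span of the cilia gene Cfap43, ranged from 0.82 to 2.69 on the intact arrays with a median of 1.77. It was 4.18 after 48 h and 8.03 after 96 h, a difference of 4.31 ± 0.63 (limma adjusted p = 0.000184). miR-6391, within the transporter gene Abcc4, had an intact range from −1.02 to 3.71 with a median of 1.30, and read 4.94 and 7.19 on the degraded arrays. miR-1931, within the kinase gene Cdk17, spanned 0.02 to 4.20 with a median of 1.86, and read 5.34 and 7.22. Both lay above all intact arrays after 48 h and again higher after 96 h, by 4.59 ± 0.84 and 4.48 ± 0.89 on average (limma adjusted p = 0.000768 and 0.00113). miR-6959-5p, within Sbf1, differed by 4.47 ± 1.61 (limma adjusted p = 0.0249), but its degraded values of 3.83 and 3.52 overlapped an intact maximum of 3.66, and with normexp correction its difference was −0.19.

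Of the increases, 42 were detected on both degraded arrays and on none of the 14 intact arrays, so that only a lower bound of the change is known. The bound sets the degraded mean against the higher of the lowest detected level and the miRNA's own value on each intact array. miR-1901 was at least 10.3-fold higher, with degraded values of 4.00 and 5.66 and intact values between −1.80 and 2.24. miR-712-3p was at least 6.93-fold higher (2.89 and 5.25 against −3.52 to 1.23). miR-6915-5p, within the protein-coding gene Ankrd52, was at least 6.83-fold higher (1.86 and 6.22 against −4.32 to 0.60). These 3 stood above every intact array after 48 h and rose further by 96 h. miR-546, within Ctdsp2, was at least 5.53-fold higher (2.83 and 4.71 against −3.34 to 1.52). miR-6958-5p, within Dennd6b, was at least 3.53-fold higher (3.00 and 3.41 against −3.24 to 2.10), while normexp correction gave it a difference of −0.30. Their limma adjusted p-values ran from 0.000501 to 0.0154. Since a miRNA counted as tested when detected on at least 5 of the 45 arrays that the study analysed, it could enter through the degraded arrays themselves. Of the 255 increases, 144 passed that filter on arrays outside the degraded groups of all 3 tissues, against 635 of all 815 tested.

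The miRNAs that share name stems with the Sfmbt2 cluster, a large rodent-specific repeat of hairpins inside an intron of Sfmbt2, were mostly higher. The list went by name, and whether each member lies at that locus was not checked. Of 31 tested members of the miR-466, miR-467 and miR-669 stems, 18 were called higher (58.1% against 31.3% of all tested) and 1 lower (3.23% against 11.2%), with a median difference of 1.23 against −0.17 for all tested. Relative to all tested miRNAs this median was 1.40 under VSN and between 0.65 and 0.84 under 75th percentile scaling, no scaling and quantile normalization, but 0.052 with normexp. miR-466i-5p, the most abundant member, was detected on all 16 arrays. It ranged from 6.75 to 8.25 on the intact arrays with a median of 7.25, and read 9.27 and 10.03 on the degraded ones, a difference of 2.30 ± 0.32 (limma adjusted p = 0.000134). miR-669f-5p, detected on 1 degraded array and on no intact array, had the largest difference of the list (3.17 ± 0.69, at least 1.26-fold, limma adjusted p = 0.00176), and normexp turned it to −0.50. Members detected on all intact arrays, such as miR-466h-3p (1.75 ± 0.30), miR-467f (1.62 ± 0.30) and miR-669p-3p (1.58 ± 0.32), were also called higher. The member called lower was miR-467b-5p, with intact values from 2.27 to 4.09 and degraded values of 2.01 and 1.15 (limma adjusted p = 0.0123). Others that were not called had negative differences too, among them miR-467a-3p (−1.21), miR-466b-3p (−0.84), miR-467e-5p (−0.80) and miR-467d-3p (−0.67). Members of these stems have near-identical sequences, and their probes can share targets.

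The largest decreases included miRNAs that declined over storage in both brains and markers of epithelia that varied between parts of brain. miR-6366 was the brightest miRNA of intact brain, at 15.28 to 17.19 with a median of 16.66. It fell to 13.81 after 48 h and to 12.79 after 96 h, a difference of −3.27 ± 0.40 (limma adjusted p = 7.48e-05). It was the only decrease called without the 96 h array. Its values at 4 °C ran from 17.19 at 0 h to 16.20 at 96 h, with a decline at 6 of 7 steps. At RT it declined at 5 of 7 steps, from 17.09 at 0 h, and was higher at 3 h (16.61) than at 1 h (16.15).

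miR-3968 declined over storage in both brains. At 4 °C its level fell at each of the 7 steps, from 13.63 at 0 h through 13.48, 13.37, 13.18, 13.05, 12.54 and 12.14 to 11.24 at 96 h. At RT it went from 13.13 at 0 h to 10.24 at 24 h, 8.95 at 48 h and 8.21 at 96 h, with a decline at 6 of 7 steps. Only 2 of 815 tested miRNAs declined at all 7 steps at 4 °C. The degraded minus intact difference was −3.71 ± 0.74 (limma adjusted p = 0.00108), with both degraded arrays below the intact minimum of 10.24. miR-6412 was also lower, with intact values from 4.65 to 7.36 and a median of 6.34, degraded values of 3.82 and 2.95, and a difference of −2.80 ± 0.66 (limma adjusted p = 0.00303). It declined at 5 of 7 steps at 4 °C and at 6 of 7 at RT.

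miR-3968 shares the letters AUCCCA with miR-3963 and miR-5100, printed above, a run found in 7 of the 1679 mature mouse miRNAs of the RefSeq table (0.417%). With miR-5100 it shares the 9 letters CGAAUCCCA, which no other entry holds. The 2 partners ranked next to miR-6366 in brightness and changed less. miR-3963 read 15.38 and 14.88 against 15.52 to 16.57, below all intact arrays but within 2-fold (−0.95 ± 0.25, limma adjusted p = 0.00519). miR-5100 read 12.97 and 12.58 against 13.09 to 14.16 (−0.85 ± 0.28, limma adjusted p = 0.0175). The sign of miR-3963 turned to 0.61 after quantile normalization, and that of miR-5100 to 0.0028 without scaling.

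**Figure D3:**
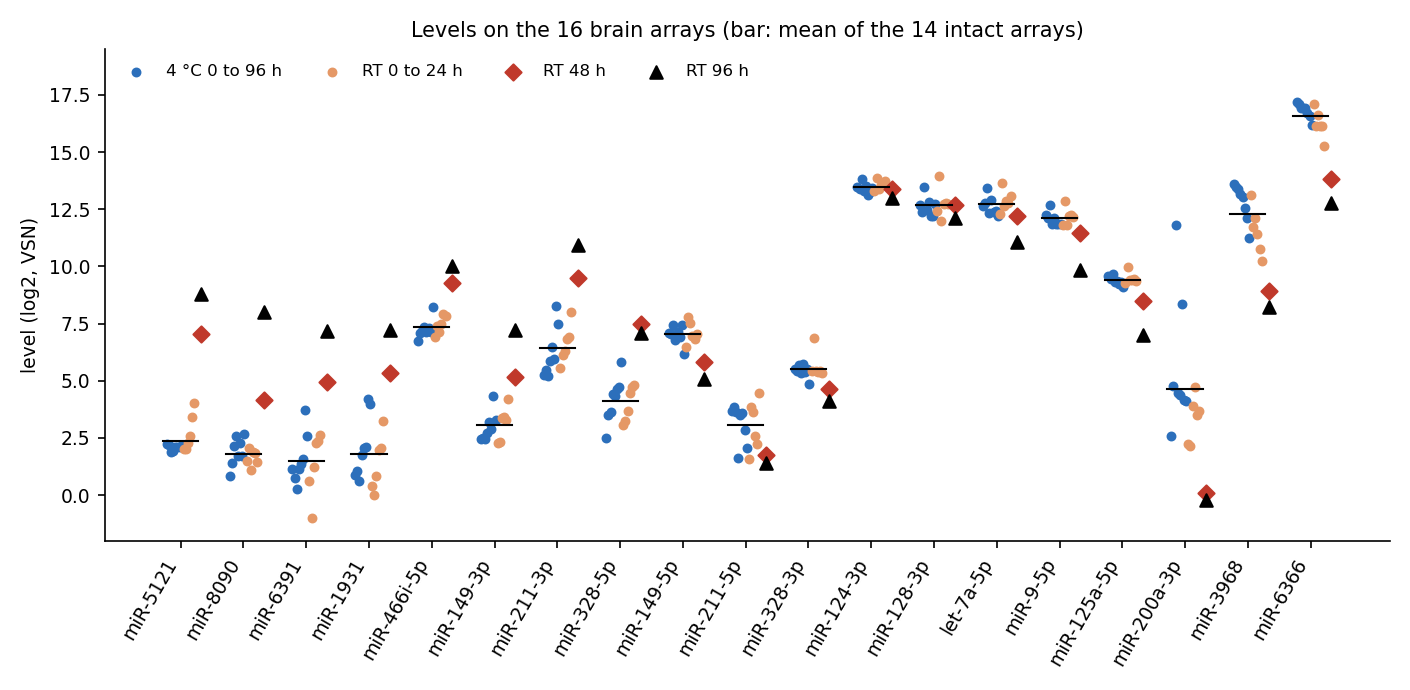
VSN level (log2) of 19 miRNAs on each of the 16 brain arrays, with blue points for 4 °C from 0 h to 96 h and orange points for RT from 0 h to 24 h, each in storage order, a red diamond for RT 48 h, a black triangle for RT 96 h and a bar for the mean of the 14 intact arrays. miR-5121 climbs along the RT series to 8.81, miR-3968 and miR-6366 decline along both series, miR-200a-3p has 2 high parts at 4 °C (11.83 and 8.34), and miR-124-3p stays within 12.97 to 13.86.

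miR-200a-3p, miR-200b-3p and miR-429-3p, 1 family typical of epithelia, were undetected on both degraded arrays. miR-200a-3p, at chr4:156054911-156054932 on the minus strand and within the lncRNA gene Gm13648, had a median of 4.16 on the intact arrays but reached 11.83 in the 3 h part and 8.34 in the 24 h part at 4 °C. It read 0.10 and −0.22 on the degraded arrays, below the intact minimum of 2.15, so that it was at least 16.6-fold lower in the means (limma adjusted p = 0.0249). Its neighbour miR-200b-3p was at least 12.0-fold lower (limma adjusted p = 0.0131) and was high on the same parts, at 10.72 and 7.50. Without the 3 h part the differences were −4.14 and −4.41, and within RT storage, where no part was high, they were −3.42 and −4.06 (limma adjusted p = 0.00524 and 0.00457). The call of miR-200a-3p was lost without scaling (−4.45), with normexp (−1.84), with the slide as a block (−3.42), without the 48 h array (−4.85) and without the 96 h array (−4.53), where the adjusted p ran from 0.0704 to 0.216 by limma. In bulk tissue, fewer cells of a type and less RNA per cell cannot be told apart, and the part that region played was not tested.

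These miRNAs belong to a list of choroid plexus and ciliated cell markers, of which 5 of 14 tested were lower (35.7% against 11.2% of all tested) and none higher (against 31.3%), with a median difference of −1.53. The list's level varied widely among intact parts: miR-204-5p, the classical miRNA of choroid plexus, ranged from 7.99 to 10.99 and read 7.99 and 7.66 on the degraded arrays (−1.55 ± 0.63, limma adjusted p = 0.0429). It overlapped the intact range and was not called within RT storage (limma adjusted p = 0.0837). miR-96-5p and miR-183-5p, of sensory epithelia, were likewise undetected on the degraded arrays and high in the 3 h part, at up to 10.53 and 9.27, and were not called.

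Neuronal miRNAs were lower or not called, and none was higher. Of 28 tested, 7 were lower (25% against 11.2% of all tested), with a median difference of −0.73. The members of this and the other cell type lists, and of the let-7, miR-29 and reference lists below, have names under 1000. Of all 459 such miRNAs tested, 17.2% were lower and 13.3% higher, with a median of −0.66. miR-124-3p, the most abundant neuronal miRNA, ranged from 13.11 to 13.86 on the intact arrays with a median of 13.45, and read 13.38 and 12.97 on the degraded arrays. Its difference of −0.31 ± 0.21 was not called (limma adjusted p = 0.206), and its sign turned without scaling (0.55) and after quantile normalization (1.15). The high level on all 16 arrays matches the label brain, since it was detected on 2 of 15 heart arrays. miR-128-3p (−0.28 ± 0.37) and miR-132-3p (−0.17 ± 0.32), also abundant in neurons, lay within the intact range after 48 h and after 96 h.

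In contrast, miR-9-5p, a regulator of neurogenesis, went from an intact range of 11.80 to 12.88 to 11.46 and 9.84 (−1.47 ± 0.34, limma adjusted p = 0.00239). miR-135a-5p had the largest decrease of the list, from an intact median of 6.61 to 5.58 and 4.40 (−1.60 ± 0.48, limma adjusted p = 0.0116), although the 48 h value lay above the intact minimum of 5.53. The others called lower were miR-7a-5p, miR-7b-5p, miR-135b-5p, miR-137-3p and miR-212-3p, by 1.05 to 1.39 in size. None of the 4 oligodendrocyte miRNAs was called, against 42.5% of all tested. miR-219a-5p, which drives their maturation, read 10.69 and 10.92 against 9.88 to 12.11, a difference of −0.10 ± 0.48 (limma adjusted p = 0.855) that was 0.75 without scaling.

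Among blood and leukocyte miRNAs, 4 of 11 were lower (36.4% against 11.2% of all tested) and none higher, with a median difference of −0.87. miR-142a-3p and miR-223-3p of leukocytes differed by −1.35 and −1.14, and both arms of the red cell hairpin miR-144 by −1.19 (3p) and −1.63 (5p). miR-451a, the most abundant red cell miRNA, was not called, with 9.11 and 9.09 against 8.96 to 11.17 (−0.57 ± 0.40, limma adjusted p = 0.209). Of 10 vessel and stroma miRNAs 1 was called, a share near the 11.2% lower of all tested. It was the endothelial miR-126a-3p, from a range of 9.44 to 10.97 to 9.38 and 8.34 (−1.12 ± 0.31, limma adjusted p = 0.00747). None of 9 heart and muscle miRNAs and none of 5 liver miRNAs was called, against 42.5% of all tested. Of these, 4 of the 9 and 2 of the 5 were detected on no brain array, against 40 of all 815 tested. For undetected miRNAs the lack of a call says little.

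The let-7 family, conserved regulators of differentiation, shares the seed GAGGUAG, which 10 tested miRNAs carry. Of these, 5 were lower and none higher, against 11.2% lower and 31.3% higher of all tested. The calls had differences between −1.08 and −1.10 (let-7a, let-7c, let-7d, let-7e and let-7f), let-7b, let-7g, let-7i and miR-98-5p had differences from −0.61 to −0.99, and let-7k, dim on the intact arrays at a median of 3.47, had a difference of 0.35 (limma adjusted p = 0.3004). let-7a-5p ranged from 12.19 to 13.65 on the intact arrays and read 12.21 after 48 h, inside that range, and 11.08 after 96 h, below it (limma adjusted p = 0.0136). It was not called without scaling, after quantile normalization or by the rank test. Neither it nor the family's other calls held without the 96 h array. Of 7 tested 3p arms, 2 were lower (28.6% against 11.2% of all tested), with a list median of −0.84. None of 10 guides of the miR-29, miR-30 and miR-26 families was called, against 42.5% of all tested. All 10 differences were negative, from −0.37 to −0.94. The bright miR-29a-3p read 13.03 and 12.51 against 12.98 to 13.87 (−0.57 ± 0.24, limma adjusted p = 0.0441), a difference that was 0.28 without scaling.

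Of 12 miRNAs often used as references for normalization, 1 was called lower (8.33%, near the 11.2% of all tested) and none higher (against 31.3%). miR-103-3p had a median of 10.55 and a maximum of 10.95 on the intact arrays, lay below all of them on both degraded arrays, and read 9.97 and 8.76 on the degraded arrays (−1.16 ± 0.26, limma adjusted p = 0.00237). The list median was −0.80, and miR-423-5p had the smallest difference (−0.13 ± 0.21, limma adjusted p = 0.595). miR-125a-5p, a homologue of the worm timing gene lin-4, fell from 9.10 to 9.96 on the intact arrays to 8.49 and 7.001 (−1.67 ± 0.28, limma adjusted p = 0.000424).

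The imprinted Dlk1-Dio3 locus, which encodes a large cluster of miRNAs expressed in neurons, had 62 tested members. Of these, 12 were lower (19.4% against 11.2% of all tested) and 1 higher (1.61% against 31.3%), with a median of −0.77. Apart from the arms of miR-1188, they have names under 1000. That class had 17.2% lower, 13.3% higher and a median of −0.66, so the share lower and the median lay near those of the class. miR-541-5p fell from an intact range of 5.36 to 6.54 to 4.92 and 3.49 (−1.71 ± 0.30, limma adjusted p = 0.000605). The abundant miR-434-3p, whose hairpin lies antisense to Rtl1, was not called (−0.75 ± 0.29, limma adjusted p = 0.0333) and had a difference of 0.10 without scaling. The increase was miR-1188-5p, detected on 1 intact array, with 3.03 and 3.00 against 0.64 to 2.27 (1.32 ± 0.37, limma adjusted p = 0.00836), and normexp turned it to −0.46. Outside these lists, miR-551b-3p differed by −1.78 ± 0.41 and miR-3068-5p by −1.62 ± 0.32, each with both degraded arrays below all intact ones (limma adjusted p = 0.00252 and 0.000964).

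**Figure D4:**
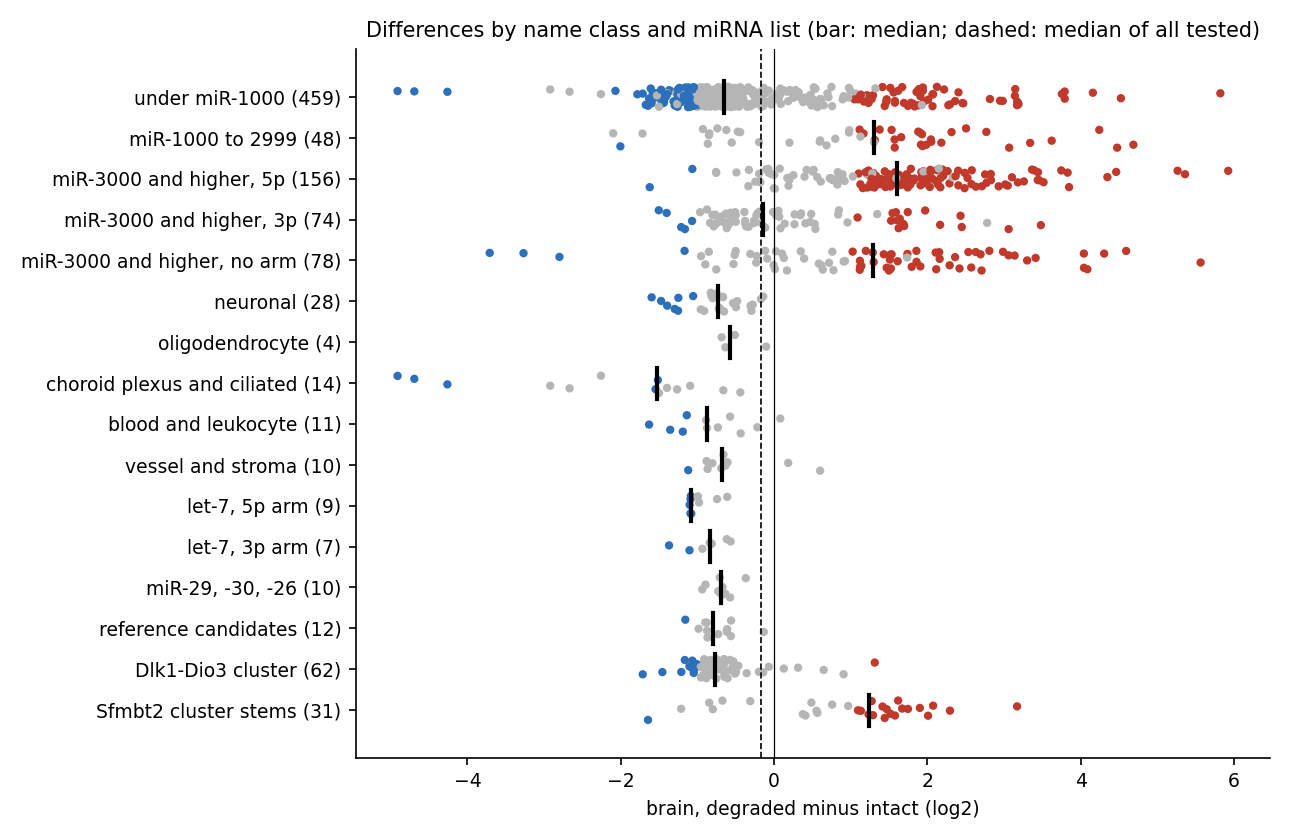
Degraded minus intact difference in brain (log2) of each tested miRNA by the number and arm in its name and by list, red where called higher, blue where called lower and grey where not called, with the number tested in parentheses, a bar for the median and a dashed line for the median of all tested (−0.17). Among names numbered 3000 and higher, the 5p arms (median 1.61) and those without an arm in the name (median 1.29) lie to the right. So do numbers from 1000 to under 3000 (median 1.31) and the Sfmbt2 stems (median 1.23). The 3p arms numbered 3000 and higher (median −0.14) lie just right of the dashed line. The lists other than the Sfmbt2 stems have medians to the left of it. Relative to all tested, the Sfmbt2 median was 0.052 with normexp.

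The calls differed by the number in the name and, among high numbers, by the arm. Of 308 tested miRNAs numbered 3000 and higher, 168 were higher (54.5% against 31.3% of all tested) and 11 lower (3.57% against 11.2%). Of 459 with names under 1000, 61 were higher (13.3%) and 79 lower (17.2%). Numbers from 1000 to under 3000 gave 26 higher (54.2%) and 1 lower (2.08%) of 48. A miRNA could enter the tested set through degraded arrays, and 144 of the 255 increases qualified without them. The calls by class and arm were not counted over that smaller set. The class medians were 1.30, −0.66 and 1.31. With normexp all 3 were negative, at −0.38, −0.74 and −0.38, where the median of all tested was −0.63. Relative to that median the classes lay at 0.26, −0.11 and 0.25. Among those numbered 3000 and higher, 107 of 156 5p arms were higher and 2 lower (median 1.61), against 16 higher and 5 lower of 74 3p arms (median −0.14). The 78 of that class without an arm in the name had 45 higher and 4 lower (median 1.29). Of 32 hairpins of that class with both arms tested, 20 had the 5p arm alone called higher and 2 the 3p arm alone, with a median difference between arms (5p minus 3p) of 1.54. In the 112 hairpins with names under 1000 that median was 0.001, with the 5p arm above the 3p arm in 56.

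The increased and decreased miRNAs differed in base composition, which the comparison had not used. Among those with a RefSeq entry, the median share of G was 45.5% in 207 increased miRNAs, 22.7% in 84 decreased ones and 30.4% in all 680. The median GC content was 62.5%, 45.5% and 54.5%. The run GGGG, searched on the miRNA strand alone, occurred in 38.2% of the increased miRNAs, in 2.38% of the decreased ones, in 17.6% of all tested and in 11.2% of all 1679 entries. Among the increases detected on all 14 intact arrays, the median share of G was 47.7% and GGGG occurred in 47.4%. The share of G was also high in the tested miRNAs numbered 3000 and higher as a whole (median 42.9%), so that name class and composition overlap. Increased names under 1000 had a median of 40.0% against 23.8% for all tested in that class. By position, 168 of 207 increased miRNAs (81.2%) lay within the span of a protein-coding gene on the same build, against 37 of 84 decreased ones (44.0%) and 431 of 680 in all (63.4%).

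**Figure D5:**
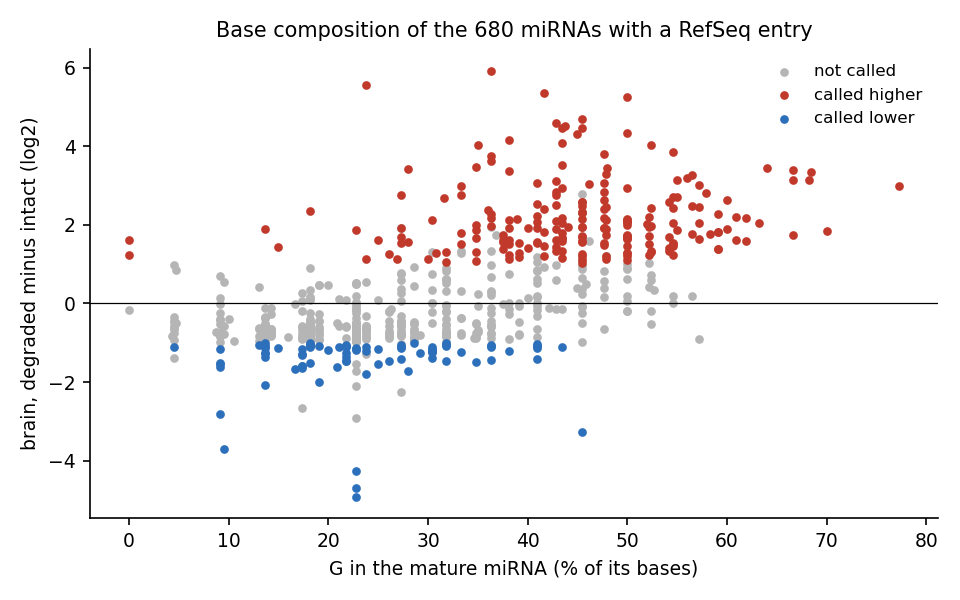
Degraded minus intact difference in brain (log2) against the share of G in the mature miRNA (% of its bases) for the 680 tested miRNAs with a RefSeq entry, red where called higher, blue where called lower and grey where not called. The increases centre at a median of 45.5% G and the decreases at 22.7%; miR-6366 is the blue point with 45.5% G and a difference of −3.27.

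Among 148 hairpins with both arms tested, 4 had arms called in opposite directions, which were picked out after their values were seen. miR-149-5p ranged from 6.18 to 7.81 on the intact arrays and read 5.84 and 5.10 on the degraded ones (−1.58 ± 0.33, limma adjusted p = 0.00136). miR-149-3p, with 68.2% G against 17.4% in the 5p arm, ranged from 2.30 to 4.35 and read 5.16 and 7.24 (3.15 ± 0.53, limma adjusted p = 0.000456). Neither arm's degraded values overlapped its intact values.

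miR-211-3p, within the span of the melastatin gene Trpm1, ranged from 5.22 to 8.29 on the intact arrays and read 9.50 and 10.92 (3.79 ± 0.69, limma adjusted p = 0.000735). At RT it increased at all 7 steps from 5.57 at 0 h, as did 19 of 815 tested miRNAs. Its partner miR-211-5p, which shares the seed UCCCUUU with miR-204-5p, read 1.74 and 1.40 against 1.59 to 4.47 (−1.51 ± 0.62, limma adjusted p = 0.0441), overlapped the intact range, and was not called by the rank test. In miR-328 the direction was the reverse, with the 5p arm at 7.48 and 7.09 against 2.48 to 5.81 (3.17 ± 0.60) and the 3p arm at 4.64 and 4.12 against 4.85 to 6.85 (−1.15 ± 0.33). The arms of miR-32 differed by −1.26 ± 0.38 (5p) and 1.12 ± 0.37 (3p), but the 3p arm was detected on 1 degraded and on no intact array.

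Storage at 4 °C for the same times gave a direct contrast, in which the late minus early change at RT was set against that at 4 °C. By limma, 2 of 815 miRNAs were called (0.245%), both higher, and 183 had an unadjusted p under 0.05. miR-5121 changed by 5.13 ± 0.70 more at RT than at 4 °C (limma adjusted p = 0.000893), where it changed by 0.08. It was called in this contrast under all alternatives run. The other, miR-3089-5p, named here after its values were seen, was detected on 1 degraded array and on no intact one, and was not called under 75th percentile scaling (1.52), quantile normalization (1.14) or normexp (−0.25). The count itself moved with the scaling, to 30, 129, 50 and 13 under 75th percentile scaling, no scaling, quantile normalization and normexp, and to 86 without the RT 48 h array.

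The intact arrays of lowest integrity already leaned the same way for the increases. On the 4 °C 96 h array (RIN 7.3) the 255 increased miRNAs lay 0.88 above the mean of 12 other intact arrays at the median, and 134 of them lay above all 12, against a median of −0.06 and 163 of 815 for all tested. On the RT 24 h array, also of RIN 7.3, the median was 0.52 with 80 above all 12, against 0.23 and 121 for all tested. For the 91 decreased miRNAs the medians were −0.62 on the 4 °C 96 h array and 0.06 on the RT 24 h array. These 2 arrays were part of the intact group. Without both, 371 miRNAs were called, 267 higher and 104 lower.

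Heart was stored for the same times and its degraded arrays were also RT 48 h and 96 h. The 2 effects were compared in 1 fit over 16 brain and 15 heart arrays. After 48 h and after 96 h at RT the RIN was lower in heart than in brain, so equal storage time was not equal RNA integrity. The part that this gap in RIN played in the differences between the tissues was not tested. Against intact heart, 385 miRNAs were called (47.2%), 291 higher (35.7%) and 94 lower (11.5%). In liver, RIN under 6 against over 6 gave 343 calls (42.1%), 299 higher (36.7%) and 44 lower (5.4%). Of the brain increases 90.2% were also called higher in heart (79.0% of the heart increases), and 87.5% in liver (74.6% of the liver increases). A miRNA was tested only if detected on at least 5 of the 45 arrays, and brain had 2 degraded arrays. One detected on degraded arrays alone thus had to be detected in degraded heart or liver too. Of the 255 brain increases, 144 passed the filter on arrays outside all degraded groups. How much of the overlap the filter set was not tested. Of the brain decreases 35.2% were also called lower in heart (34.0% of the heart decreases), and 10 of the 91 in liver (22.7% of the liver decreases). These shares differ in the number called in each tissue and were not tested against each other.

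The effects in brain and heart differed for 25 of 815 miRNAs (3.07%). The higher difference was in brain for 6 (0.736% of all tested) and in heart for 19 (2.33%). With normexp 29 were called, 23 with the higher difference in brain and 6 in heart, and 7 of the 25 were among them. miR-139-3p was higher in degraded brain, with 4.81 and 6.21 against 3.54 to 4.43, and differed by −0.54 in heart (difference of the effects 2.10 ± 0.36, limma adjusted p = 0.000835). miR-669p-3p of the miR-669 stem differed by 1.58 in brain and −0.17 in heart (1.75 ± 0.45, limma adjusted p = 0.0225). miR-3963 fell by 2.75 in heart and differed by −0.95 in brain (1.80 ± 0.41, limma adjusted p = 0.011). In the other direction stood miRNAs that brain expressed and intact heart hardly did. miR-341-3p of the Dlk1-Dio3 locus read 6.34 and 6.46 in degraded brain, inside its intact range of 5.98 to 7.02, and went from a mean of 2.06 to 6.44 in heart (−4.52 ± 0.76, limma adjusted p = 0.000835). miR-672-5p was lower in brain (−1.10) and higher in heart (3.36), the 1 brain decrease with the opposite call there (limma adjusted p = 0.00162). miR-330-3p also differed (−3.58 ± 1.02, limma adjusted p = 0.0472), but it was detected on no heart array. Most of the 25 lost their call without the heart 96 h array, and also without the brain 96 h array. Each of these fits left 1 degraded array in that tissue. Brain and heart parts of the same storage time came from the same animal, and a fit on the 15 brain minus heart pairs, 2 of them degraded, called 63 miRNAs, 14 with the higher difference in brain and 49 in heart, with all 25 among them.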

How the data were processed

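Total RNA was labelled with cyanine 3 and hybridised to 1-colour Agilent mouse miRNA arrays (1881 miRNAs). Signals came from Agilent Feature Extraction, and the authors deposited log2 values after background correction and VSN, which give undetected miRNAs a value too. The scanner files deposited per array hold the signal intensity of each spot, from which the detection flags, the other scalings and normexp (offset 50, on the median signal and background) were taken. Precision is limited by the number of arrays, 2 against 14.

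The 815 miRNAs detected on at least 5 of the 45 arrays that the study analysed (1 heart array left out) were tested with limma 3.58.1 (lmFit, eBayes) in R 4.3.3. A miRNA was called at a Benjamini-Hochberg adjusted p under 0.05 and a difference over 1. Alternatives were 75th percentile, no and quantile scaling, normexp with 75th percentile scaling, other filters, the slide as a block, leaving out each array, and the exact rank test. Per the study's methods the organs on the arrays came from the same individual, so brain and heart of 1 temperature and storage time were also paired (15 pairs, without the brain array whose heart partner was left out). The deviations of paired arrays from their group means correlated at 0.0777 to 0.587 across miRNAs. Scripts were tested on simulated data. Exact permutation tests used Python 3.11.15. Sequences and coordinates came from RefSeq (GRCm38.p6).

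Named miRNAs were the 8 largest increases and 8 largest decreases detected on all arrays of the higher group, the 5 largest increases detected on both degraded arrays and no intact array, the 5 brightest on intact arrays, in each list the largest difference in each direction and the brightest member, and the largest differences of the 2 contrasts between groups. Other list members given as examples were picked after their values were seen. The members and the lists were chosen with earlier results of these data known.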

Additional observations from a re-analysis of the deposited data

Results flagged for a closer look

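The change between early and late storage differed between RT and 4 °C for 2 miRNAs, miR-3089-5p by 5.93 and miR-5121 by 5.13 on the log2 scale. miR-3089-5p read 1.13 and 2.82 on the degraded arrays and between −4.77 and −3.24 on the intact ones.

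The degraded minus intact effect differed between brain and heart for 25 miRNAs, among them miR-139-3p by 2.10, miR-3963 by 1.80, miR-669p-3p by 1.75, miR-341-3p by −4.52, miR-672-5p by −4.45 and miR-330-3p by −3.58.

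Single parts stood apart from the other intact parts of the same brain in 11 of 92 sets of values, where chance sets about 1 in 20 independent sets apart. These sets were read on the same arrays and are not independent, so the count cannot be held against that rate. In the brain at 4 °C, the 96 h part read 5.63 for miR-6412 (others 6.62 to 7.36), 15.60 for miR-3963 (15.996 to 16.30), 1.57 for let-7e-3p (2.39 to 3.06) and 8.25 for miR-466i-5p (6.75 to 7.34), and the 3 h part read 10.55 for miR-451a (9.46 to 9.89). In the RT brain, the 1 h part read 9.96 for miR-125a-5p (9.29 to 9.44), 4.03 for miR-144-5p (1.29 to 2.09) and 11.17 for miR-451a (8.96 to 9.52). It also read 3.58 for let-7d-3p (1.74 to 2.42) and 3.62 for let-7e-3p (2.55 to 2.83). The 0 h part read 4.68 for miR-194-5p (5.24 to 5.48). Of all intact arrays, that of the RT 1 h part correlated least with the mean of the others, at 0.959.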

How the results depend on the processing

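Degraded and intact brain arrays share no pairs, since each storage time and temperature gave 1 array. Brain and heart parts of the same animal and storage time do, and with this pairing as a block, added after the data were seen, the 25 calls between the tissues became 63. Against 346 calls, normexp with 75th percentile scaling (normexp for short) gave 95, no filter 596 and detection on at least 8 of 14 intact arrays 207. Leaving out 1 array gave 22 (without RT 96 h) to 400 (without RT 48 h). The share higher among the calls was 67.2% under 75th percentile scaling, 98.5% without scaling, 49.8% after quantile normalization, 58.9% with normexp, 62.8% without a filter, 60.9% with detection on at least 8 intact arrays, 54.3% without the 2-fold limit and 56.25% to 95.5% with 1 array left out. The slide as a block gave 367 calls. Within RT storage the counts were 98, 493 and 182 under normexp, no filter and the 8-array filter, and 2 (without RT 96 h) to 353 with 1 array left out, 167 of them without RT 3 h.

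In the contrast of RT against 4 °C the 2 calls became 30, 129, 50 and 13 under 75th percentile scaling, no scaling, quantile normalization and normexp, 1 with detection on at least 2 of 16 brain arrays, 1 on at least 8 intact arrays, 4 with a trend in the prior, 5 without both arrays of RIN 7.3, and 2 to 86 with 1 array left out (86 without RT 48 h, 11 without 4 °C 0 h, 6 without RT 24 h, 4 without RT 1 h). In the contrast with heart the 25 calls became 101, 58 and 154 under 75th percentile scaling, no scaling and quantile normalization, and 1 to 32 with 1 degraded array left out. With normexp the contrast with heart gave 29 calls, 23 with the higher difference in brain and 6 in heart, and 7 of the 25 were among them. Under the other scalings 67, 51 and 105 of the calls had the higher difference in heart. The detection difference was 203 within RT storage (exact permutation p = 0.0714) and 143 to 253 with 1 array left out. Leaving out both RIN 7.3 arrays or a degraded heart array was added after the data were seen.

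Differences changed sign without scaling for miR-5100 (0.0028), miR-124-3p (0.55), miR-29a-3p (0.28), miR-451a (0.28), miR-434-3p (0.10), miR-1a-3p (0.53), miR-219a-5p (0.75), miR-341-3p (0.72), miR-330-3p (0.033), miR-128-3p (0.58) and miR-132-3p (0.68). They did so after quantile normalization for miR-3963 (0.61), miR-124-3p (1.15) and miR-128-3p (0.034), and with normexp for miR-6959-5p (−0.19), miR-6958-5p (−0.30), miR-1188-5p (−0.46), miR-669f-5p (−0.50) and miR-3089-5p (−0.44). With 1 array left out the ranges that crossed 0 were −0.22 to 0.015 for miR-219a-5p (0.015 without RT 48 h), −0.68 to 0.0078 for miR-1a-3p, −0.58 to 0.029 for miR-128-3p and −0.50 to 0.16 for miR-132-3p (the last 3 crossing without RT 96 h). Of 45 miRNAs named by rule, 33 were called, 28 without RT 48 h and 4 without RT 96 h.

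Relative to all tested miRNAs, list medians with normexp were −0.15 (blood), −0.13 (Dlk1-Dio3), −0.40 (let-7 5p), −0.16 (let-7 3p), −0.017 (miR-29, miR-30 and miR-26), −0.12 (neuronal), −0.15 (reference) and 0.052 (Sfmbt2). With detection on at least 8 intact arrays they were −0.33 (blood), −0.21 (Dlk1-Dio3), −0.27 (let-7 3p), −0.13 (miR-29, miR-30 and miR-26), −0.17 (reference) and 2.004 (Sfmbt2). The Sfmbt2 median was 0.65, 0.84 and 0.80 under 75th percentile scaling, no scaling and quantile normalization. The cause of these shifts was not tested.

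Signal over background set the limit for dim miRNAs: 74 of the 255 increases were detected on no intact array. Of 161 called miRNAs detected on all 16 arrays with 2 or more probes, 160 had the same sign on every probe. The calls were made on the combined signal of these same probes, so this count is not a separate test of them.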
